A study of Mus musculus with 4 samples.

Results

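The genes described here are 9 components of the death receptor and caspase pathway, found as the rows named Fas, Tnfrsf10b, Tnfrsf1a, Fadd, Tradd, Ripk1, Casp8, Casp9 and Apaf1 among the 53677 gene symbols of each library. All 9 were present in the files, and 8 of them had enough counts to be tested. The set was chosen by the fold changes of this same comparison, in which Fas and Tnfrsf10b moved in opposite directions, so the values of that pair are given as a description, without a test. RNA was sequenced from mouse GV (germinal vesicle) oocytes, in which meiosis is arrested before maturation resumes. Oocytes were collected 48 h after an injection of PMSG (7.5 IU), a hormone that stimulates follicle growth. There were 2 control libraries (Ctrl) and 2 libraries of oocytes with a knockdown of Ell3, an RNA polymerase II elongation factor gene (Ell3 KD), each made from 5 oocytes by Smart-seq2, which amplifies cDNA along whole transcripts. Sources used here do not state the strain and age of the mice, how the knockdown was made, what the controls received, or whether replicate libraries are from different animals. All p-values and fitted errors therefore measure only how these libraries vary, and that variation may be technical.

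Death receptors are cell surface proteins of the TNF receptor superfamily that carry a death domain on their inner side. When a ligand clusters them, the adaptor FADD, directly or by way of TRADD and the kinase RIPK1, brings in caspase-8, an initiator caspase that cleaves executioner caspases. A separate route starts at mitochondria, where released cytochrome c lets APAF1 assemble the apoptosome and activate caspase-9. In the ovary these routes are known from the loss of follicles and of oocytes during development and ageing.

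The Ctrl libraries held 45131278 and 48669267 counts and the Ell3 KD libraries 89632815 and 65722415, so the groups did not overlap in depth. Levels are in CPM, counts per 1e+06 of the library total after scaling. A gene without a count could still stand at 0.0665 and 0.0616 CPM in the Ctrl libraries and at 0.0335 and 0.0456 CPM in the Ell3 KD libraries, where 3 counts are taken as the limit. Such limits, and the intervals given with counts, hold counting error alone: reads copied by PCR and lacking molecular identifiers do not each stand for a molecule. Ell3, the targeted gene, was counted 371 and 483 times in Ctrl, against 255 and 181 times in Ell3 KD, a log2 fold change of -1.66 ± 0.14 (SE), and Serinc4, on the same strand, overlaps 65.6% of its exons. The 10 oocyte markers, among them Gdf9, Bmp15 and Zp3, summed to 23305 and 22742 CPM in Ctrl and to 22202 and 22132 CPM in Ell3 KD. Of these, Gdf9, Zp1, Nlrp5 and Nobox fell and Oosp1 and Dppa3 rose. The 12 cumulus and granulosa cell markers summed to 56.3 and 59.2 CPM in Ctrl and to 55 and 57.6 CPM in Ell3 KD. The 9 theca and stroma markers summed to 4.37 CPM in each Ctrl library and to 4.83 and 5.38 CPM in Ell3 KD, with Insl3 and Col1a2 at 0 in all libraries.

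The death receptor genes among these members were counted at very low levels in both groups, while the adaptor and caspase genes downstream of them lay far higher. This does not hold for all receptor genes of the family: Edar, which is not a member, had a mean of 4.72 CPM. Fas was lower in Ell3 KD and Tnfrsf10b was higher. Tnfrsf1a was lower too, but it had at most 5 counts in any library and was not tested. Among the downstream genes the changes were small: Tradd rose, Ripk1 and Casp8 rose slightly, Fadd fell slightly, and Casp9 and Apaf1 did not pass the test. Of the 8 members tested, 4 were called higher and 2 lower at an adjusted p under 0.05, where 42.9% of all 17879 genes tested were called, 21.1% higher and 21.8% lower. With a coefficient of variation of 0.2 assumed between libraries, Fadd, Tradd, Ripk1 and Casp8 were not called (edgeR adjusted p from 0.206 to 0.934). Because the list was chosen with this contrast in view, nothing is read from that count. The median log2 fold change of the 8 was 0.16, against -0.0024 over all genes tested. Nothing is read from this median either, since the 8 include Fas and Tnfrsf10b.

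**Figure D1:**
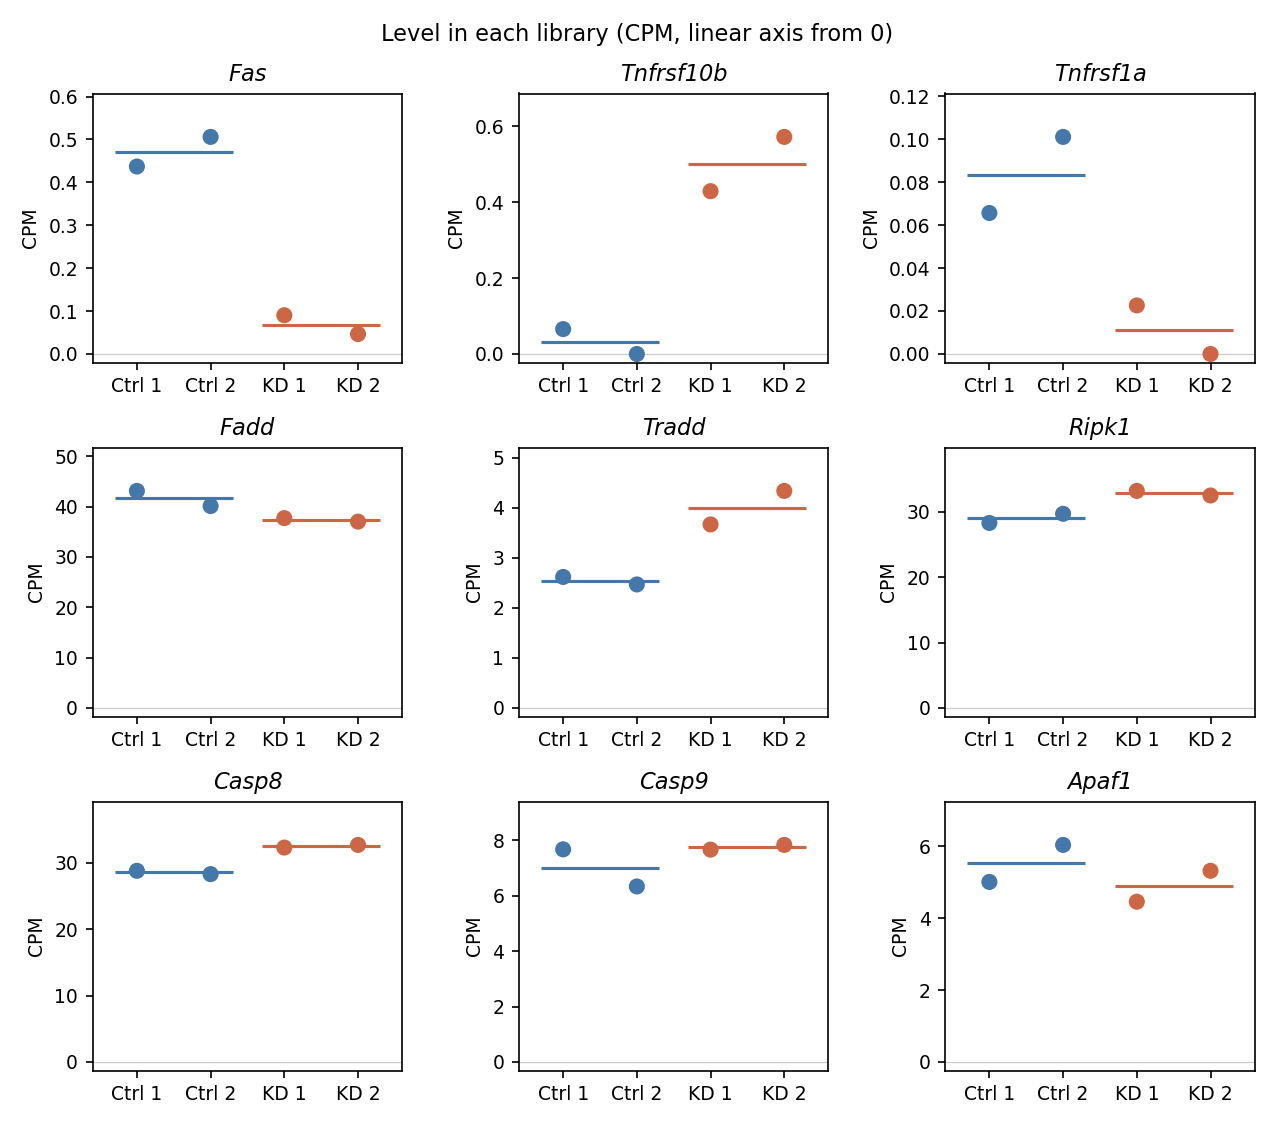
Level of each of the 9 genes in each library, in CPM on linear axes that start at 0, with Ctrl in blue and Ell3 KD in orange, 1 point per library and a line at the group mean (n = 2). Fas and Tnfrsf1a lie lower and Tnfrsf10b higher in both Ell3 KD libraries, all at well under 1 CPM, while Fadd, Ripk1 and Casp8 lie between 28.3 and 43.1 CPM with small differences.

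Compared per length, the 9 genes spanned more than 2 powers of 10. On the scale of CPM per kb of annotated exon, the Ctrl levels were highest for Fadd, at 11 and 10.3, and Casp8, at 9.97 and 9.79. Ripk1 followed at 3.4 and 3.56. Tradd, at 1.41 and 1.32, and Casp9, at 1.48 and 1.22, overlapped in Ctrl, and their order could not be told from these libraries. Apaf1 lay at 0.555 and 0.668, Fas at 0.212 and 0.246, Tnfrsf1a at 0.0253 and 0.0391, and Tnfrsf10b at 0.012 in 1 library and at a count of 0 in the other. The receptors were thus the bottom 3 of the 9 in Ctrl.

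The order of the genes was not the same in Ell3 KD on this CPM per kb scale. Casp8, at 11.2 and 11.3, stood above Fadd, at 9.66 and 9.47, with no overlap between the genes. Tnfrsf10b, at 0.0787 and 0.105, stood above Fas, at 0.0438 and 0.0225, and above Tnfrsf1a, at 0.00871 and a count of 0. Tradd, at 1.97 and 2.33, no longer overlapped with Casp9, at 1.48 and 1.51. These levels use all annotated exons of a gene, so a gene of which only a short transcript is present would be placed too low.

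**Figure D2:**
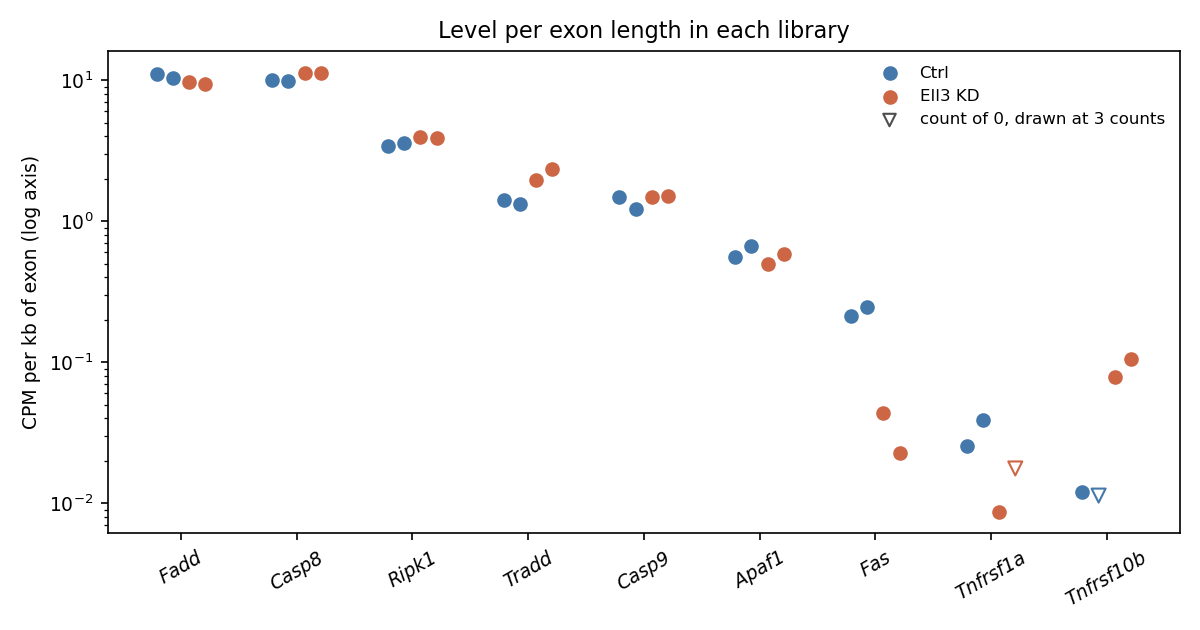
Level of each gene per exon length, in CPM per kb of exon on a log axis, with genes ordered by their mean in Ctrl, 1 filled point per library, and open triangles for a count of 0 drawn at 3 counts. The receptors Fas, Tnfrsf1a and Tnfrsf10b sit at the bottom in every library, Fadd and Casp8 at the top near 10 CPM per kb, and Tnfrsf10b is the lowest of these receptors in Ctrl (blue) and the highest in Ell3 KD (orange).

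Fas encodes the receptor for FAS ligand and lies on chromosome 19 from 34290666 to 34327772 on the plus strand of GRCm38, with no exon shared with another annotated gene. It was counted 20 and 25 times in Ctrl, against 8 and 3 times in Ell3 KD, although the Ell3 KD libraries were deeper. In CPM this was 0.437 and 0.506 in Ctrl and 0.0903 and 0.0464 in Ell3 KD: both Ell3 KD libraries lay below both Ctrl libraries. The 95% exact Poisson intervals of the single libraries ran from 0.267 to 0.676 and from 0.328 to 0.747 CPM in Ctrl, and from 0.039 to 0.178 and from 0.00957 to 0.136 CPM in Ell3 KD. Over the summed counts of each group, 45 in Ctrl and 11 in Ell3 KD, the level was 6.6-fold lower in Ell3 KD, with a counting interval of 3.36 to 14.1. The fitted log2 fold change was -2.71 ± 0.65 (SE). Of 3099 genes tested with a mean within a factor of 2 of that of Fas (0.135 to 0.54 CPM), 9.33% had a log2 fold change at least as large in either direction. That share is no test, since Fas was chosen by its direction in this comparison.

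Tnfrsf10b encodes the death receptor for the ligand TRAIL in the mouse and lies on chromosome 14 from 69767472 to 69784411 on the plus strand. It was counted 3 and 0 times in Ctrl, against 38 and 37 times in Ell3 KD. In CPM this was 0.0656 and 0 in Ctrl, where the second library allowed up to 0.0616, and 0.429 and 0.572 in Ell3 KD. Both Ell3 KD libraries thus lay above both Ctrl libraries. The summed counts of 3 and 75 gave a level 15.5-fold higher in Ell3 KD, with a counting interval of 5.11 to 76.9. The fitted log2 fold change was 3.89 ± 0.81, and it was 8.08 without Ctrl replicate 1 and 2.88 without Ctrl replicate 2, so its size rests on the 3 counts of 1 library. Of 3076 genes tested with a mean between 0.133 and 0.533 CPM, 4.84% had a log2 fold change at least as large. This share cannot serve as a test: Tnfrsf10b was chosen by its direction and had enough counts only through Ell3 KD.

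Tnfrsf10b has no exon in common with another gene, but its end lies 578 bases from the end of Rhobtb2 on the opposite strand, so that the pair is transcribed toward each other. Rhobtb2 was singled out after its values were seen. It was counted 464 and 446 times in Ctrl, against 2100 and 1481 times in Ell3 KD, a rise of 1.28 ± 0.08 on the log2 scale. Tnfrsf10b made up 0.642% and 0% of the counts of this pair in Ctrl and 1.78% and 2.44% in Ell3 KD. Sources used here do not state whether the counting used strand, and the part of Rhobtb2 reads in the Tnfrsf10b counts was not tested. On the same strand 4930480K23Rik, which ends 358 bases before Tnfrsf10b begins, had between 1 and 3 counts in every library.

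Within a library, the balance of Fas and Tnfrsf10b needs no scaling between libraries. Fas made up 20 of the 23 counts of the pair in Ctrl replicate 1 (87%, 95% Clopper-Pearson interval 66.4 to 97.2%) and 25 of 25 in Ctrl replicate 2 (100%, 86.3 to 100%). In Ell3 KD it made up 8 of 46 counts in replicate 1 (17.4%, 7.82 to 31.4%) and 3 of 40 in replicate 2 (7.5%, 1.57 to 20.4%). These shares are of counts, without regard to the longer exons of Tnfrsf10b (5451 bases, against 2062 for Fas), and per exon length the Ell3 KD shares were 35.8% and 17.7%. The shares of the groups did not overlap, which the choice of these genes for opposite directions makes likely. With all libraries thinned at random to the depth of the shallowest, the counts were 20 and 23 in Ctrl and 4 and 3 in Ell3 KD for Fas, and 3 and 0 against 20 and 23 for Tnfrsf10b.

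Tnfrsf1a encodes the main signalling receptor for TNF and lies on chromosome 6 from 125349362 to 125362484. It was counted 3 and 5 times in Ctrl, against 2 and 0 times in Ell3 KD, too few for the test. The summed counts of 8 and 2 gave a level 6.45-fold lower in Ell3 KD with a counting interval of 1.29 to 62.3. Both Ell3 KD libraries lay below both Ctrl libraries, but none had more than 5 counts. The 95% exact Poisson intervals of the single libraries overlapped between groups. They ran from 0.0135 to 0.192 and from 0.0329 to 0.236 CPM in Ctrl. In Ell3 KD they ran from 0.00273 to 0.0815 and from 0 to 0.057 CPM.

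In pools of oocytes such as these, fewer cells of a type and less RNA per cell cannot be told apart. The sum of a list of 8 blood cell markers was lower in Ell3 KD, as Fas was: 3.43 and 3.52 CPM in Ctrl and 1.57 and 1.25 CPM in Ell3 KD. Of that list Cd68 fell (log2 fold change -1.16, edgeR adjusted p = 2.18e-04). Csf1r had a log2 fold change of -2.39 and had enough counts to be tested only through Ctrl. Ptprc stood at 0.153 and 0.122 CPM in Ctrl and at 0.135 and 0.0773 CPM in Ell3 KD, with overlap, and was not tested. Adgre1, Hba-a1, Hbb-bs, Lyz2 and Cd3e had no count in any library. Of the cumulus and granulosa markers, Inha and Gja1 rose, as Tnfrsf10b was higher, by log2 fold changes of 1.16 and 1.17 (edgeR adjusted p = 3.63e-04 and adjusted p = 1.21e-06), and Foxl2, a defining granulosa gene, was at 0 and 0 counts in Ctrl and at 4 and 3 in Ell3 KD. Other genes of this list had lower values. Nr5a2, its most abundant gene, fell (log2 fold change -0.24, edgeR adjusted p = 0.00391), and Fshr was not called (log2 fold change -0.85, edgeR adjusted p = 0.063). Has2 was counted 7 and 3 times in Ctrl, against 2 and 2 times in Ell3 KD. Cyp19a1, Ptx3, Kitl and Inhba overlapped between groups and were not called (edgeR adjusted p from 0.407 to 0.949). Hsd17b1 overlapped too, and Amh was at 0 and 0 counts in Ctrl and at 9 and 5 in Ell3 KD. The 4 endothelial markers, of which Pecam1 was the most abundant, stood at 65.7 and 70.3 CPM in Ctrl and at 55.3 and 58.3 CPM in Ell3 KD, with Cdh5 at 1 count in 1 library and 0 in the others. Pecam1 fell (log2 fold change -0.35, edgeR adjusted p = 3.01e-06), Kdr rose (log2 fold change 0.78, edgeR adjusted p = 0.0179), and Tek had means of 5.15 and 6.43 CPM (edgeR adjusted p = 0.0875). Of the theca and stroma markers Dcn and Hsd3b1 rose (edgeR adjusted p = 0.00122 and adjusted p = 0.0395), while Cyp11a1, the most abundant, stood at 2.76 and 2.61 CPM in Ctrl and at 1.91 and 2.03 CPM in Ell3 KD (edgeR adjusted p = 0.0701). Cyp17a1 had 1 count in each Ctrl library and 0 in Ell3 KD, and the groups overlapped for Pdgfra. The part of these cell types in the receptor values was not tested.

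The promoter sequences of a pair of receptors and of the adaptor are shown because the genes stand at opposite ends of the level order: Fas and Tnfrsf1a at the bottom, Fadd at the top. Each is the 250 bases before the RefSeq start on GRCm38.p6, read 5′ to 3′ on the strand of the gene. The RefSeq start can lie downstream of the start of the annotated gene. The whole Tnfrsf1a window lies inside the annotated gene, which starts at 125349362. The Fadd window overlaps the start of its annotated gene, at 144582463 on the minus strand. Capitals mark the GC box GGGCGG and the E-box CACGTG on either strand. RefSeq entries were found for 7 of the 9 genes.
Fas, chr19:34290409-34290658, plus strand: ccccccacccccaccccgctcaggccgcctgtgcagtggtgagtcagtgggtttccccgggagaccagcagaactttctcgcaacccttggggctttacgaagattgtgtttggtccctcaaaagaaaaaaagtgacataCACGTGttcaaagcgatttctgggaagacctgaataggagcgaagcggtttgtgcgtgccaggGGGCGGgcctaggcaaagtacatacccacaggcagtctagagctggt
Tnfrsf1a, chr6:125349473-125349722, plus strand: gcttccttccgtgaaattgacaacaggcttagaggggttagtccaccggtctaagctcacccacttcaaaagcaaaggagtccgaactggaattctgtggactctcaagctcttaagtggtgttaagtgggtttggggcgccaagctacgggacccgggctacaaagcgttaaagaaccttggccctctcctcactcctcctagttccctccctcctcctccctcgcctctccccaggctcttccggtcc
Fadd, chr7:144582442-144582691, minus strand: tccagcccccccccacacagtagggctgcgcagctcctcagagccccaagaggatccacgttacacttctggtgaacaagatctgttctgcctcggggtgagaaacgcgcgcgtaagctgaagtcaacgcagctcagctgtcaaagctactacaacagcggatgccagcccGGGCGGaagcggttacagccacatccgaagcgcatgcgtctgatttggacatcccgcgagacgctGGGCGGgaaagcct
The Fas window held 11 CG dinucleotides, that of Tnfrsf1a 9 and that of Fadd 19, where the median of 32851 such windows was 6. A GC box was present in the windows of Fas and Fadd and in 32.7% of all windows, and the E-box of Fas in 6.02%. The letters TATAAA, found in 12.4% of all windows, were in none of the 3. Casp8, at about the level of Fadd, had 5 CG dinucleotides in its window, which begins at 58802252, inside the annotated gene. Apaf1, at a lower level, had 42, Casp9 had 25, and the windows of Ripk1 had 19 and 32. The window of Ripk1 with 32 begins at 34002624, also inside the annotated gene. A relation between the number of CG dinucleotides and the level was not tested.

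Of the adaptors, Tradd changed most. It encodes the death domain adaptor of the TNF receptor and lies on chromosome 8 from 105258286 to 105264609. It had 2.62 and 2.47 CPM in Ctrl and 3.67 and 4.34 CPM in Ell3 KD, without overlap between groups. It rose (log2 fold change 0.65 ± 0.17, edgeR adjusted p = 0.00337), a 1.57-fold change with a 95% interval of 0.30 to 1 in log2. Without Ell3 KD replicate 2 the call was lost, at a log2 fold change of 0.53 and an edgeR adjusted p = 0.0535. Fbxl8, which starts 38 bases away on the opposite strand, was counted 422 and 532 times in Ctrl, against 908 and 649 times in Ell3 KD. These are raw counts, not scaled for the greater depth of the Ell3 KD libraries, so they do not show a rise of Fbxl8.

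Fadd encodes the adaptor that links death receptors to caspase-8 and lies on chromosome 7 from 144577318 to 144582463. Its levels were 43.1 and 40.1 CPM in Ctrl and 37.7 and 37.0 CPM in Ell3 KD, 41.6 ± 2.15 against 37.3 ± 0.509 (SD, n = 2 per group). It fell (log2 fold change -0.15 ± 0.06, edgeR adjusted p = 0.0259), a change of about 1.11-fold. The call was lost with DESeq2 (adjusted p = 0.124), without Ctrl replicate 1 (edgeR adjusted p = 0.233), without Ell3 KD replicate 1 (edgeR adjusted p = 0.0821), without Ell3 KD replicate 2 (edgeR adjusted p = 0.153) and after removal of the length and GC trend of all genes, where the log2 fold change was -0.08. Its exons share 6.12% of their length with the opposite-strand gene Faddos, which was counted 0 and 1 times in Ctrl, against 4 and 5 times in Ell3 KD.

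Ripk1 encodes the kinase that takes part in survival and in death signals of the TNF receptor and lies on chromosome 13 from 34002363 to 34037147. Its levels were 28.3 and 29.7 CPM in Ctrl and 33.2 and 32.5 CPM in Ell3 KD. It rose (log2 fold change 0.18 ± 0.06, edgeR adjusted p = 0.0164). This call was lost with DESeq2 (adjusted p = 0.0756), without Ctrl replicate 1 (edgeR adjusted p = 0.109), without Ell3 KD replicate 1 (edgeR adjusted p = 0.113) and with library totals alone as the scale (edgeR adjusted p = 0.0588). It shares 2.89% of its exon length with Serpinb6a on the opposite strand.

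Casp8 encodes the initiator caspase of the receptor route and lies on chromosome 1 from 58795374 to 58847503. Its levels were 28.8 and 28.3 CPM in Ctrl and 32.3 and 32.7 CPM in Ell3 KD, 28.6 ± 0.367 against 32.5 ± 0.292 (SD, n = 2 per group). It rose (log2 fold change 0.18 ± 0.06, edgeR adjusted p = 0.0133). The call was lost with DESeq2 (adjusted p = 0.0649) and without Ctrl replicate 2, Ell3 KD replicate 1 or Ell3 KD replicate 2 (edgeR adjusted p = 0.0652, adjusted p = 0.0553 and adjusted p = 0.077). Among the 3684 genes tested with a mean within a factor of 2 of that of Casp8, 53.3% were called. In that class 44.8%, called or not, had a change at least as large, so changes of this size were common at this level.

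Casp9 encodes the initiator caspase of the mitochondrial route and lies on chromosome 4 from 141793612 to 141815976. It had 7.68 and 6.34 CPM in Ctrl and 7.67 and 7.84 CPM in Ell3 KD, and the groups overlapped. Its log2 fold change was 0.15 ± 0.12 (edgeR adjusted p = 0.34), with a 95% interval of -0.10 to 0.39. Apaf1, the gene for the apoptosome scaffold, lies on chromosome 10 from 90989311 to 91082770 and had 5.01 and 6.04 CPM in Ctrl and 4.46 and 5.32 CPM in Ell3 KD, again with overlap. Its log2 fold change was -0.18 ± 0.14 (edgeR adjusted p = 0.318), with a 95% interval of -0.48 to 0.11, and the intervals of both genes include changes up to these bounds.

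**Figure D3:**
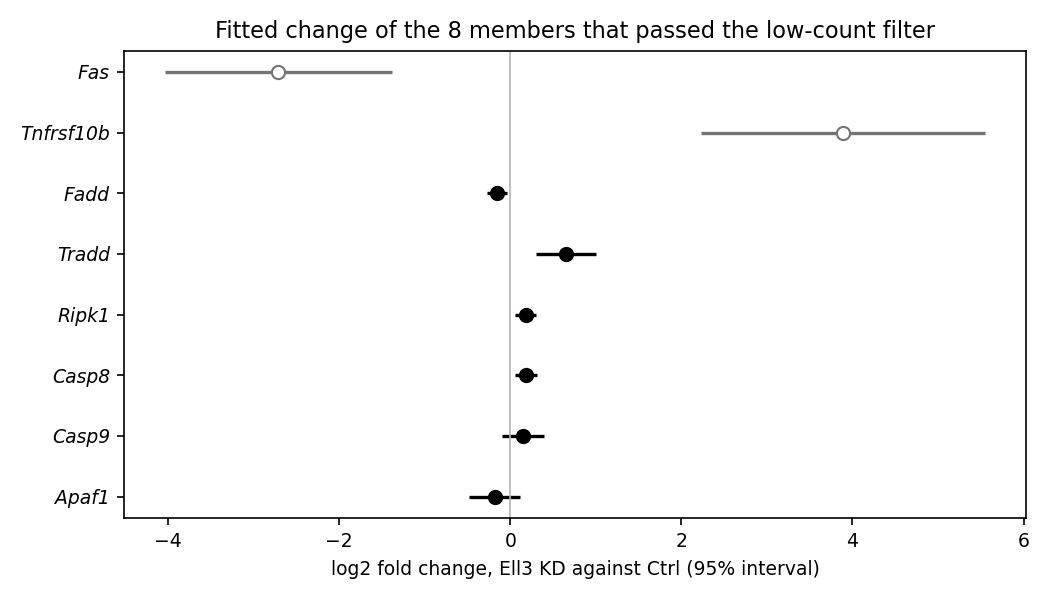
Fitted log2 fold change of Ell3 KD against Ctrl for the 8 tested genes, with 95% intervals of the fit, in open grey symbols for Fas and Tnfrsf10b, which were listed for their directions, and in black for the others. Fas (-2.71) and Tnfrsf10b (3.89) lie far out with wide intervals, Tradd lies at 0.65, and the other genes lie within 0.18 of 0.

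Ratios between members within a library do not depend on how libraries are scaled to each other. Per exon length, Tradd stood at 12.7% and 12.9% of Fadd in Ctrl and at 20.4% and 24.6% in Ell3 KD. Casp8 stood at 90.3% and 95.4% of Fadd in Ctrl and at 116% and 119% in Ell3 KD, and Ripk1 at 30.8% and 34.6% against 41.2% and 41.1%. These 3 ratios were higher in both Ell3 KD libraries than in both Ctrl libraries. All of them are taken over Fadd, which fell, so they are not separate observations. How often ratios of other gene pairs separate the groups was not computed. Casp9 stood at 14.8% and 12.5% of Casp8 in Ctrl and at 13.2% and 13.4% in Ell3 KD, where the groups overlapped. Apaf1 stood at 37.6% and 54.8% of Casp9 in Ctrl and at 33.4% and 39.1% in Ell3 KD, also with overlap. With 2 libraries a group, an exact permutation test of such a ratio cannot reach a p under 0.33, and none was run.

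The rest of the pathway was followed in 79 further genes, of which 60 were tested and 9 had no count in any library. Of the 60, 11 rose and 16 fell (45% called, against 42.9% of all genes tested), with a median log2 fold change of -0.057. Of 9 ligand genes 4 were tested, and 2 of these fell. Tnfsf10, which encodes TRAIL, the ligand of the Tnfrsf10b receptor, had 2.21 and 2.98 CPM in Ctrl and 1.41 and 1.35 CPM in Ell3 KD and fell (log2 fold change -0.91 ± 0.23, edgeR adjusted p = 0.00205). Eda, the gene for ectodysplasin, fell (log2 fold change -1.28 ± 0.15, edgeR adjusted p = 2.05e-07), while its receptor gene Edar did not pass the test (log2 fold change 0.06 ± 0.15, edgeR adjusted p = 0.761). Fasl and Tnf, the ligand genes of Fas and Tnfrsf1a, had no count in any library.

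Of 11 other receptor genes 4 were tested and 1 fell. That was Tnfrsf12a, the receptor gene for TWEAK, at 3.63 and 1.96 CPM in Ctrl and 1.75 and 1.35 CPM in Ell3 KD (log2 fold change -0.84 ± 0.25, edgeR adjusted p = 0.00768), and its call was lost without Ctrl replicate 1 (edgeR adjusted p = 0.352) and with DESeq2 (adjusted p = 0.053). Of 19 genes of the TNF receptor signalling complex and its NF-kB branch, 18 were tested, 4 rose and 3 fell. Otulin, which encodes a deubiquitinase of linear ubiquitin chains, rose from 3.68 ± 0.185 to 7.68 ± 0.628 CPM (adjusted p = 4.53e-07 by edgeR, log2 fold change 1.07 ± 0.13), and Sharpin, a subunit gene of the ligase that makes these chains, rose by 0.31 ± 0.07 in log2 (edgeR adjusted p = 7.37e-04). Spata2, which recruits the deubiquitinase CYLD to that complex, fell from 41 ± 0.717 to 26.8 ± 0.894 CPM, and Ikbkb, an IkB kinase gene, fell from 68.4 ± 1.88 to 49.5 ± 1.09 CPM (edgeR adjusted p = 4.49e-09 and adjusted p = 1.69e-08). Birc3, an inhibitor of apoptosis gene and the most abundant of this list, stood at 607 ± 2.63 and 584 ± 16.3 CPM and was not called (edgeR adjusted p = 0.144).

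Of 9 regulators of FADD and caspase-8, 1 rose and 4 fell. Cflar, which encodes the caspase-8 inhibitor c-FLIP, had 58.5 and 59 CPM in Ctrl and 50 and 49.6 CPM in Ell3 KD and fell (log2 fold change -0.24 ± 0.05, edgeR adjusted p = 2.23e-04). Casp8ap2, the gene for a large caspase-8 associated nuclear protein, rose by 0.26 ± 0.03 on the log2 scale, Dedd2 fell by 0.98 ± 0.19 and Daxx fell by 0.33 ± 0.07 (the highest edgeR adjusted p of the 3 was 1.93e-04). Of the 4 necroptosis genes 3 were tested and 1 fell, the mitochondrial phosphatase gene Pgam5 (log2 fold change -0.67 ± 0.11, edgeR adjusted p = 1.45e-05), of whose exons 58.1% are overlapped from the opposite strand. Ripk3, the kinase gene that RIPK1 needs for necroptosis, had no count in any library.

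Of 7 partners and inhibitors of the apoptosome 6 were tested, 2 rose and 1 fell. Cycs, the cytochrome c gene, had 179 and 172 CPM in Ctrl and 207 and 216 CPM in Ell3 KD and rose (log2 fold change 0.27 ± 0.04, edgeR adjusted p = 1.20e-06). Aven, which encodes an inhibitor of APAF1, rose (log2 fold change 0.25 ± 0.03, edgeR adjusted p = 3.66e-07), with 18.3% of its exons overlapped from the opposite strand. Htra2, a mitochondrial protease gene, fell (log2 fold change -0.25 ± 0.05, edgeR adjusted p = 4.54e-04), with 43.7% overlapped in that way.

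Of 10 other caspase and PIDDosome genes 6 were tested, 1 rose and 3 fell. Casp2, an initiator caspase gene of the PIDDosome, fell (log2 fold change -0.45 ± 0.07, edgeR adjusted p = 2.38e-05). Pidd1, the scaffold gene of that complex, fell (log2 fold change -1.08 ± 0.34, edgeR adjusted p = 0.0127), a call lost without Ell3 KD replicate 2 (edgeR adjusted p = 0.0993) and with DESeq2 (adjusted p = 0.067). Casp6 fell (log2 fold change -0.43 ± 0.16, edgeR adjusted p = 0.0376), a call lost under 6 of 13 alternatives.

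Of 10 caspase targets and death effectors, 3 rose and 1 fell. Dffb, which encodes the caspase-activated DNase, was counted 3 and 2 times in Ctrl, against 44 and 33 times in Ell3 KD, and both Ell3 KD libraries lay above both Ctrl libraries. Its log2 fold change was 3.21 ± 0.68. It had enough counts to be tested only through Ell3 KD, where it was high, so no p-value is given. Dffa, the gene for the inhibitor and chaperone of that DNase, had 5.36 and 6.16 CPM in Ctrl and 5.5 and 4.72 CPM in Ell3 KD. The groups overlapped, and Dffa was not called (log2 fold change -0.17 ± 0.14, edgeR adjusted p = 0.334). Gsdmd, a gasdermin pore gene, rose (log2 fold change 2.12 ± 0.52), from 3 and 17 to 58 and 77 counts, a call lost without Ell3 KD replicate 2. Gsdmd likewise had enough counts to be tested only through Ell3 KD. Its log2 fold change was 1.40 without Ctrl replicate 1 and 3.75 without Ctrl replicate 2. The other gasdermin gene listed, Gsdme, fell (log2 fold change -0.46 ± 0.07, edgeR adjusted p = 1.71e-05), and Acin1 rose (log2 fold change 0.61 ± 0.12, edgeR adjusted p = 1.95e-04).

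**Figure D4:**
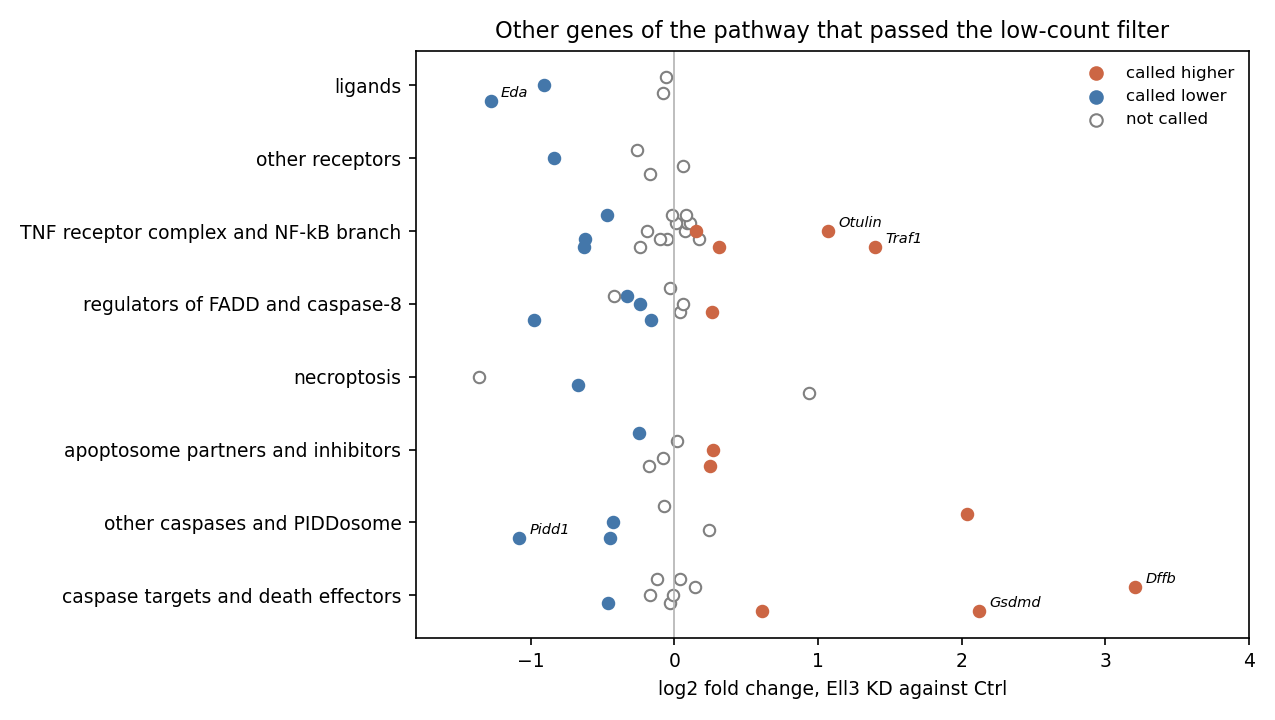
Log2 fold change of Ell3 KD against Ctrl for the 60 tested pathway genes other than the 9 members, 1 point per gene in rows by list (points are spread vertically only to be seen), filled orange where called higher, blue where called lower and open where not called. Most points lie within 1 of 0, and Dffb (3.21) and Gsdmd (2.12) lie farthest to the right.

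The genes most like Fas and Tnfrsf10b in pattern were sought by the Euclidean distance of centred log2 CPM over the 4 libraries, among 13280 genes with a mean of at least 1 CPM. With 2 groups of 2 libraries this is mainly a likeness of fold change, and it was computed from the values that chose these genes. For a gene with few counts, the difference between libraries of the same group enters the distance as well. Nearest to Fas were Kcnk2, Synpo and Wdr4, at distances of 0.30, 0.31 and 0.43. Kcnk2 was counted 92 and 138 times in Ctrl, against 56 and 27 times in Ell3 KD. Nearest to Tnfrsf10b were Speer4f2, Ntn4 and Dapk3, at distances of 1.04, 1.15 and 1.19. No gene among those compared lay as near to Tnfrsf10b as Kcnk2 to Fas. The Tnfrsf10b counts of 3 and 0 in Ctrl differ within the group and add to its distances, and their part was not tested. Dapk3, a death-associated protein kinase gene, was counted 238 and 258 times in Ctrl, against 4216 and 2865 times in Ell3 KD. Ntn4, a netrin gene, was counted 43 and 34 times in Ctrl, against 416 and 298 times in Ell3 KD.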

How the data were processed

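Gene counts of 4 libraries were analysed, with groups and replicate numbers taken from the sample titles. The deposited values are raw counts per gene symbol, and per the submitters' processing notes the build was mm10 and the tools were featureCounts, HISAT2 2.2.1.0 and FastQC 0.11.5. Sources used here do not give the annotation, the strand setting or how multiply mapped reads were counted.

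All 4 libraries entered one two-sided quasi-likelihood test of edgeR 4.0.16 (R 4.3.3) with group as the sole term, after filterByExpr and TMM scaling, and Benjamini-Hochberg adjustment ran over the 17879 genes tested. The SE of a fold change is its size over the root of its F value. CPM were scaled by TMM factors, and log2 CPM used a prior count of 2. Coordinates, lengths and exon overlaps came from GENCODE M21 (GRCm38, which is mm10), and promoters from RefSeq on GRCm38.p6. The fit was tested on simulated data.

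The members, gene lists, tests and alternatives were chosen with earlier results of these data known. The text names the 9 members, Ell3, and from each pathway list the 2 most abundant genes and up to 4 called genes with the smallest p, of which it describes a part, and the 3 genes nearest in pattern to Fas and to Tnfrsf10b, leaving out predicted, Rik and pseudogene symbols. Genes outside this rule are named for having no count, as partners of a described gene, as markers or as neighbours. Some listed genes are counted but not reported here by name. Alternatives were DESeq2 1.42.0, limma-voom (limma 3.58.1), library totals or RLE factors as the scale, other filters, thinning to equal depth, an assumed coefficient of variation of 0.2, a replicate block, removal of a length and GC trend fitted over all genes, and leaving out each library.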

Additional observations from a re-analysis of the deposited data

How the results depend on the processing

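All 8 tested members kept the direction of their log2 fold change under all 14 alternatives, which use the same 4 libraries. This carries no weight for Fas and Tnfrsf10b, which were chosen by direction. For Casp9 and Apaf1, which were not called, the log2 fold change came as near to 0 as 0.01 and -0.04. For Fas the log2 fold change ran from -3.28 to -2.36 and for Tnfrsf10b from 2.88 to 8.08. With DESeq2, 2 members were called higher and 1 lower, and with an assumed coefficient of variation of 0.2 this was 1 and 1. These counts include Fas and Tnfrsf10b, which were chosen for their directions and say nothing about stability. Of the other 6 tested members, Tradd was called with DESeq2 and none with the assumed coefficient of variation. Leaving out 1 library at a time gave 2 to 3 members higher and 1 to 2 lower. The assumed coefficient of variation called 861 genes higher and 1103 lower over all genes and 5 higher and 5 lower among the other pathway genes. It left the calls of 8 of the 23 named pathway genes that were called, and 18 of the 23 were called under each of the other 13 alternatives. Counted per exon length, Fas made up 35.8% of the pair with Tnfrsf10b in Ell3 KD replicate 1 and 17.7% in Ell3 KD replicate 2. For the other changes of calls the cause was not tested.

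With the replicate number as a block (replicate block), 3894 genes were called higher and 3987 lower, 4 and 2 among the members and 11 and 16 among the other pathway genes. Deviations from the group means of same-numbered libraries had a correlation of 0.029 over genes, and the labels do not say that the numbers pair the samples. At these depths a gene below 0.0616 to 0.0665 CPM in Ctrl cannot be told from one without counts.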

Other observations

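Several receptor and ligand genes with too few counts for the test had counts in Ell3 KD and none or few in Ctrl, and they were singled out after their values were seen. The decoy receptor gene Tnfrsf22 was counted 0 and 0 times in Ctrl, against 13 and 7 times in Ell3 KD, and the related decoy receptor gene Tnfrsf23 had 5 and 1 against 20 and 9. Lta, the lymphotoxin alpha gene, was counted 0 and 0 times in Ctrl, against 6 and 12 times in Ell3 KD. Bid, which encodes the BH3-only protein cleaved by caspase-8, went the other way in counts, with 6 and 7 in Ctrl and 1 and 4 in the deeper Ell3 KD libraries. Tab1, a partner gene of the kinase TAK1, had 1 and 5 counts in Ctrl and none in Ell3 KD. The groups did not overlap in depth, and the part of depth in the counts of Tnfrsf22, Tnfrsf23 and Lta was not tested.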
